A study of Mus musculus with 36 samples.

Results

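The genes described here encode the proteasome, the protease that degrades ubiquitin-tagged proteins. All genes whose annotated symbol starts with Psma, Psmb, Psmc, Psmd or Psme were taken, each read through its brightest probe set, which gave 44 genes of the 18193 on the array that had a probe set with a single symbol. They comprised 8 alpha-ring genes, 8 beta-ring genes, 6 ATPases and 11 non-ATPases of the regulatory cap, 3 assembly chaperones of the cap, 4 immunoproteasome genes, and the activators Psme3 and Psme4. Psmc3ip, a meiotic recombination factor, and Psme3ip1, an interactor of Psme3, carry the prefix without being subunits. The immunoproteasome gene Psme2 had no probe set with a single symbol and has no value here. The thymus-specific Psmb11 had signals of 21 to 464 and did not pass the filter on low signal, so 43 of the 44 genes were tested. Psma8, the alpha subunit of testis, was dim in every group, and no statement of presence rests on such a signal.

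The study profiled RNA of the cardiac left ventricle on 36 Affymetrix mouse arrays, in mice of C57black background with heart-muscle transgenes for activated members of the Ras and stress kinase pathways. The transgenic groups carried HRas-v12 (activated Ras), MKK3bE (an activated kinase upstream of p38) or MKK7D (an activated kinase upstream of the JNK kinases). Each was a floxed transgene under the αMHC promoter, which drives expression in cardiac muscle cells, combined with Mer-Cre-Mer under the same promoter. Control littermates were described as having no transgene, Mer-Cre-Mer included, so that the kinase and the recombinase cannot be told apart in a contrast against such controls. The Esr1 signals of late MKK7D control arrays 8 and 9, given below, go against that description. Transgenic and control mice alike received tamoxifen at 20 mg/kg into the peritoneum daily for 3 days at 12 weeks of age. Early hearts were taken 4 to 7 days after the first injection, and late hearts 2 to 4 weeks after it.

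Early HRas-v12 was represented by 2 female and 3 male arrays, late HRas-v12 by 3 female and 3 male arrays, early MKK3bE by 2 female arrays, and late MKK3bE by 2 female and 3 male arrays. These were set against 3 female and 3 male control arrays that serve both lines and both times and carry no time label. MKK7D had 3 early and 3 late female arrays, each time with 3 female control arrays of its own. The labels do not say whether the arrays of a group are separate animals, so each p-value measures the spread between arrays, which may be partly technical. Values are MAS5 signals, an arbitrary brightness scale. A difference is the log2 of signal plus 32, the transgenic group minus its control, averaged over the sexes where both were sampled. It was called when limma's p, adjusted by the Benjamini-Hochberg method over all 12626 genes tested, was under 0.05.

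Some arrays stood apart from their labels. Mer-Cre-Mer contains estrogen receptor sequence, and the Esr1 probe set gave 12437 to 155949 in 21 of the 24 transgenic arrays, against 294 to 7943 in the shared controls. Esr1 did not exceed the highest shared control in HRas-v12 early female array 3 (688) and in HRas-v12 late male arrays 1 (2915) and 3 (1327). That highest control was control female 2 (7943). All other shared controls read 294 to 832, so both late males lay above them and are in doubt only by the level of control female 2. In the late MKK7D controls, Esr1 read 106402 in array 8 and 91291 in array 9, against 953 in array 10. The early MKK7D control array 1, labelled female, had a Y-linked Eif2s3y signal of 6018. These 6 arrays were kept in, and calls that are lost or gained without them are given beside the results, a setting chosen after the data had been seen. The 12 cardiac muscle markers summed to 1184255 to 2187429.8 over the early HRas-v12 arrays and the shared controls, and no marker was at 0 in any array.

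The constitutive proteasome is a barrel of alpha and beta rings whose proteolytic sites lie in Psmb5, Psmb6 and Psmb7. The regulatory cap, built of Psmc ATPases and Psmd subunits, binds, unfolds and deubiquitinates the substrate. Under interferon the catalytic subunits are exchanged for Psmb8, Psmb9 and Psmb10, and the Psme1 and Psme2 activator is induced, which favours the peptides that class I molecules present. When proteasome activity is short, the transcription factor Nfe2l1 raises core and cap genes together. In heart muscle the proteasome turns over sarcomere and signalling proteins, and resident immune and endothelial cells carry much of the immunoproteasome.

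The 250 bases before the annotated start are shown for 5 genes on which the results turn: Psmd14, Psmc6 and Psmd11 as cap genes that rose in a transgenic line, and Psme4 and Psmb9 as genes that fell. The sequences are RefSeq's, of build GRCm38.p6. Those of Psmd14 (chr2:61711444-61711693), Psmc6 (chr14:45329574-45329823), Psmd11 (chr11:80428365-80428614) and Psme4 (chr11:30771525-30771774) lie on the plus strand, and that of Psmb9 (chr17:34187331-34187580) on the minus strand. Capitals mark matches, on either strand, to one of the 5 motifs searched.
Psmd14: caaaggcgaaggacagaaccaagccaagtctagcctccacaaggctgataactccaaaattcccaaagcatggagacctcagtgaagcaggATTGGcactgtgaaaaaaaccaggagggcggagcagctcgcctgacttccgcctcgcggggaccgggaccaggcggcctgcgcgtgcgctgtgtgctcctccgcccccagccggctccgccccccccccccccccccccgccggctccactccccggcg
Psmc6: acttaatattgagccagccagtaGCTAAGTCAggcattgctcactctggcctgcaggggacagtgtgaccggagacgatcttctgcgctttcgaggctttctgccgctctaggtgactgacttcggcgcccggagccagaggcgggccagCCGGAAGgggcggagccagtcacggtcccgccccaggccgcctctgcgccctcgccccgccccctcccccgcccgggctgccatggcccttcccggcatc
Psmd11: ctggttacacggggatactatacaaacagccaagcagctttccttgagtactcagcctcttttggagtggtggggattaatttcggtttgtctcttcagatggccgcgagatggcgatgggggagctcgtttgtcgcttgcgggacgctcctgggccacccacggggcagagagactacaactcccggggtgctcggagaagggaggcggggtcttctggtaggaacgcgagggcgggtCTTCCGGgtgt
Psme4: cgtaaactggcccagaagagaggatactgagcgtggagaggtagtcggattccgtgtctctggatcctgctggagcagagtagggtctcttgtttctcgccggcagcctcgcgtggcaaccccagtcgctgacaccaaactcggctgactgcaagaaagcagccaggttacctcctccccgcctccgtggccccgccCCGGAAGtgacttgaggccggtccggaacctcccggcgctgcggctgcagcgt
Psmb9: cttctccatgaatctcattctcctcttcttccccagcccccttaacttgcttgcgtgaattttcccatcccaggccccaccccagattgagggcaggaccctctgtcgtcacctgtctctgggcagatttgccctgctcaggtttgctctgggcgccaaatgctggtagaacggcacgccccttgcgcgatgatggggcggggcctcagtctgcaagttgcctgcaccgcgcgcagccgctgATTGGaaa
The CCAAT box (CCAAT) was matched in Psmd14, 159 bases before the start, and in Psmb9, 8 bases before it. The Ets site (CCGGAAG) was matched in Psmc6, Psmd11 and Psme4, at 100, 11 and 53 bases before the start. The core of the antioxidant response element, to which Nfe2l1 binds with small Maf partners (TGACNNNGC), was matched in Psmc6 at 227 bases. Of the 37 genes of the set with a promoter in the table, 12 (32.4%) held the Ets site, against 6.91% of all 32851 promoters. CCAAT was in 16 (43.2%), against 33.8% of all promoters, and TGACNNNGC in 5 (13.5%), against 10.2%. The gamma-activated site (TTCNNNGAA) was in Psmb8 alone (2.7%, against 7.02%), and the interferon-type repeat, GAAA followed by any 2 bases and GAAA again, in 3 genes (8.11%, against 2.98%). The shares of the set are counted by gene, and those of all promoters by promoter, whether or not the gene was tested, so they are not counted alike. A match is a description of letters, and a window without one says only that these letters are not in it.

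**Figure D1:**
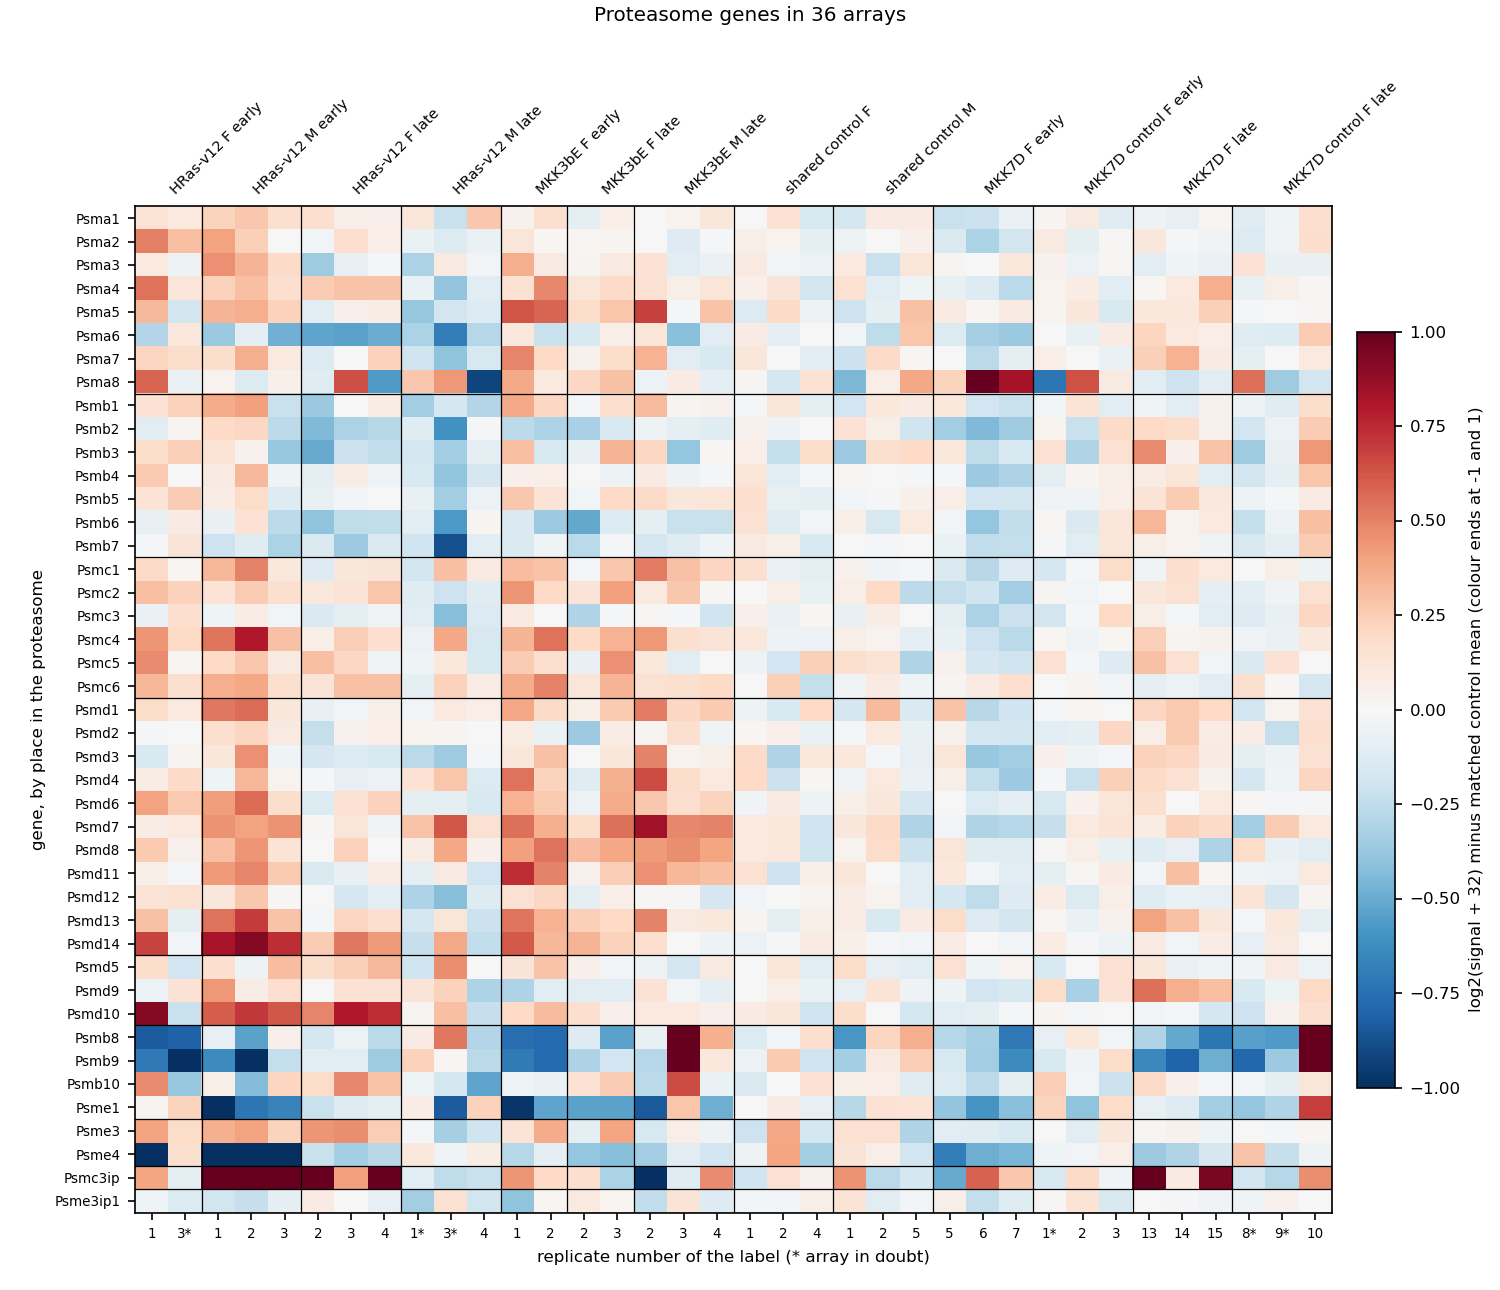
Each cell is the log2 signal of a proteasome gene (rows, grouped by role) on one array (columns) minus the mean of its matched control arrays, from blue (−1, lower) to red (1, higher), with asterisks on the 6 arrays that stood apart from their labels. The cap rows are mostly red in the early HRas-v12 and early MKK3bE columns, and Psme4 is blue in 4 of the 5 early HRas-v12 columns.

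In early HRas-v12 hearts 6 of the 17 subunits of the proteasome cap were called higher, Psmd14 most, a share near that of all genes called. The activator Psme4 and the immunoproteasome gene Psmb9 fell. Of the 43 genes tested, 11 rose, a share to be read against 15.1% of all genes tested, and 2 fell, against 18.7%. In either direction 13 were called (30.2%), against 33.8% of all genes tested. The 17 cap subunits all had a difference above 0, with 6 called (35.3%, against 33.8% of all genes) and a median of 0.22 on the log2 scale. The 14 core subunits had 11 differences above 0, with 2 called (14.3%, below the 33.8% of all genes) and a median of 0.15. The median over all genes tested was −0.04. Without HRas-v12 early female 1 the calls numbered 5, and with only the compared groups in the fit 8. Without the arrays in doubt Psma5, Psmc1, Psmc5 and Psmd8 also rose, Psma6 also fell, and the call of Psmc2 was lost.

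Psmd14, the deubiquitinase of the cap, rose most among the subunits. Its signal was 22931 and 14073 in the early HRas-v12 females and 31378, 33390 and 29560 in the males, against 13732 to 15162 in control females and 17319 to 18293 in control males. Every early HRas-v12 male lay above all controls, as did female 1, while female 3, one of the arrays at control level for Esr1, lay within them. The mean was 26266 ± 7867 in early HRas-v12 hearts (SD, n = 5) and 16011 ± 1923 in controls (SD, n = 6). The difference was 0.58 ± 0.11 (SE), a 1.49-fold rise (limma adjusted p = 0.000291), and it was 0.75 without the arrays in doubt.

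Psmc4, an ATPase of the cap, had signals of 11901 and 10067 in early HRas-v12 females and 13387, 16140 and 11309 in males, against 8403 to 9650 with a median of 9053.6 in controls. No early HRas-v12 array overlapped the controls. The rise was 0.43 ± 0.10 (SE), or 1.35-fold (limma adjusted p = 0.0016), and a further Psmc4 probe set gave 0.83. Psmd10, a cap assembly chaperone also known as the oncoprotein gankyrin, had signals of 3265 and 1459 in early HRas-v12 females and 3035, 3256 and 3068 in males, against 1483 to 2244 in controls with a median of 1835.8. The 4 arrays other than female 3 lay above all controls. Its rise of 0.50 ± 0.14 (SE), or 1.41-fold (limma adjusted p = 0.0065), was 0.21 with an adjusted p of 0.234 when HRas-v12 early female 1 was left out, and 0.78 without the arrays in doubt.

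Psmc3ip, which is no subunit, had signals of 828 and 583 in early HRas-v12 females and 1435, 2315 and 2695 in males, against 525 to 885 in controls. The males alone lay above the controls. The difference was 0.90 ± 0.30 (SE), 1.87-fold (limma adjusted p = 0.0224), and its call was lost without any one of HRas-v12 early female 1, early male 3 and control male 2 (adjusted p up to 0.141).

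The other 7 genes that rose are named here after their values were seen. They were the cap subunits Psmd6 (0.36), Psmd13 (0.30), Psmc6 (0.28) and Psmc2 (0.22), the alpha-ring subunits Psma2 (0.31) and Psma4 (0.28), and the nuclear activator Psme3 (0.31). Psmd6 had signals of 26858 and 24308 in early HRas-v12 females and 24103 to 31405 in males, against 18996 to 23098 in controls, with no overlap. Psma2 ranged from 22784 to 29943 in early HRas-v12 hearts, against 19004 to 23517 in controls, and only male 3 overlapped them. Psma2, Psmc4, Psmd14 and Psmd6 stayed called whichever single array was left out. Psma4, Psmc6 and Psmd13 lost their calls without HRas-v12 early female 1, as did Psma4 without control female 4 and Psmd13 without early male 2 or control male 2, and the calls of Psmc2 and Psme3 were lost in 7 and 6 of the 11 single omissions. Further probe sets of Psmd6 (−0.08), Psmc6 (−0.11 and −0.22), Psmc2 (−0.03 and −0.05), Psme3 (0.07) and Psmd13 (0.42 and 0.07) did not all move with the brightest one.

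Psme4, an activator that opens the barrel without ubiquitin and is tied to histone degradation in testis and DNA repair, fell. Its signal was 18136 and 42531 in early HRas-v12 females and 17631, 18178 and 18678 in males, against 30034 to 50093 in controls with a median of 40352.8. The males and female 1 lay below every control, and female 3 lay among them. Means were 23031 ± 10907 in early HRas-v12 hearts (SD, n = 5) and 40518 ± 7337 in controls (SD, n = 6). The difference was −0.83 ± 0.14 (SE), 1.78-fold lower (limma adjusted p = 0.000161). It stayed between −1.14 and −0.52 over the single omissions, all called, and the other 4 probe sets of Psme4 gave −0.79, −0.56, −0.37 and −0.70.

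Among the immunoproteasome genes none rose and 1 of 4 fell, and the median of the 4 was −0.42. The share called was 25%, no higher than the 33.8% of all genes called in either direction. Psmb9, the inducible counterpart of Psmb6, had signals of 1943 and 1518 in early HRas-v12 females and 1514, 1005 and 2009 in males, against 2795 to 3865 in control females and 1863 to 2826 in control males. Each female lay below the control females, while HRas-v12 male 3 lay above the lowest control male. Means were 1598 ± 404 (SD, n = 5) in early HRas-v12 hearts and 2827 ± 657 (SD, n = 6) in controls. The log2 difference of Psmb9 was −0.79 ± 0.27 (SE), 1.73-fold lower in HRas-v12 hearts (limma adjusted p = 0.0244). The call was lost without any one of HRas-v12 early females 1 and 3, early male 2, control female 2 and control male 5, at adjusted p of 0.0536 to 0.0784.

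Psmb8, the counterpart of Psmb5, had 2552 and 2589 in early HRas-v12 females and 3003, 2180 and 3288 in males, against 4147 to 5116 in control females and 2114 to 4109 in control males. The females did not overlap their controls and the males did, with a difference of −0.50 and a limma adjusted p of 0.166. Psme1, a subunit of the interferon-induced activator, read 30220 and 34587 in early HRas-v12 females and 14281, 17290 and 17965 in males, against 27984 to 31296 in control females and 23551 to 31523 in control males. The males lay below all controls and the females did not, and the difference of −0.33 had a limma adjusted p of 0.196. With only the compared groups in the fit, Psme1 was called lower (adjusted p = 0.0419). Psmb10, the counterpart of Psmb7, differed by −0.00 (limma adjusted p = 0.985). The constitutive catalytic subunits gave 0.12 for Psmb5 (chymotrypsin-like activity), −0.03 for Psmb6 (caspase-like) and −0.08 for Psmb7 (trypsin-like), none of them called.

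Other cell types moved with these genes in early HRas-v12 hearts. Of 17 macrophage markers 10 rose, and their summed signal was 72323 to 286578 in early HRas-v12 hearts, against 76902 to 116374 in controls. Of 12 endothelial markers 9 fell, with sums of 50314 to 99083 in early HRas-v12 hearts and 79563 to 113366 in controls. Of 12 cardiac muscle markers 10 fell, at 1184255 to 1475400 in early HRas-v12 hearts against 1665345 to 2187429.8 in controls, and 7 of 12 fibroblast markers rose. Of 18 T, B and NK cell markers, 4 were tested and 1 rose (25%). Of macrophage markers 58.8% were called, of endothelial 75%, of cardiac muscle 83.3% and of fibroblast 58.3%, against 33.8% of all genes tested. In whole tissue, fewer cells of a type and less RNA per cell cannot be told apart, and the part of these markers in the changes was not tested.

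Among genes around the proteasome, the share called early in HRas-v12 hearts was 22.2% for assembly and regulation, 42.9% for transcription and 20.8% for class I presentation and interferon, against 33.8% of all genes tested. Of 18 tested genes of assembly and regulation, 2 rose and 2 fell: the deubiquitinase Usp14 (0.55) and the assembly factor Pomp (0.31) rose, and the adaptor Ecpas (−0.46) and the shuttle factor Ubqln4 (−0.45) fell. With the mean of probe sets Usp14 was at 0.10, Ecpas at −0.22 and Ubqln4 at −0.27, none called, and without HRas-v12 early female 1 Ecpas (−0.27) and Pomp (0.19) were not called. Of 7 transcription-related genes, Ngly1, the glycanase that activates Nfe2l1, rose (0.35), and Nfe2l1 itself (−0.67 ± 0.11, SE) and Keap1 (−0.32) fell. Nfe2l1 had signals of 20465 and 31079 in early HRas-v12 females and 15026, 21462 and 16167 in males, against 24710 to 39037 in controls. The array that overlapped its controls was again female 3, and the limma adjusted p was 7.24e-05. Of 24 class I presentation and interferon genes, the chaperone Pdia3 rose (0.79), and B2m (−0.63), Tap2 (−0.47), the transcription factor Irf1 (−0.41) and, outside the naming rule, Nlrc5, the transactivator of class I genes (−0.86), fell. Over the 22 alternatives Nfe2l1 and Pdia3 were called in all 22, Irf1 in 21, Ngly1 in 18, Keap1 and Tap2 in 17 and B2m in 16. B2m was 37645 to 48522 in early HRas-v12 hearts, against 50864 to 87568 in controls, without overlap. Uba6, the one ubiquitin precursor or activating gene tested, was not called.

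**Figure D2:**
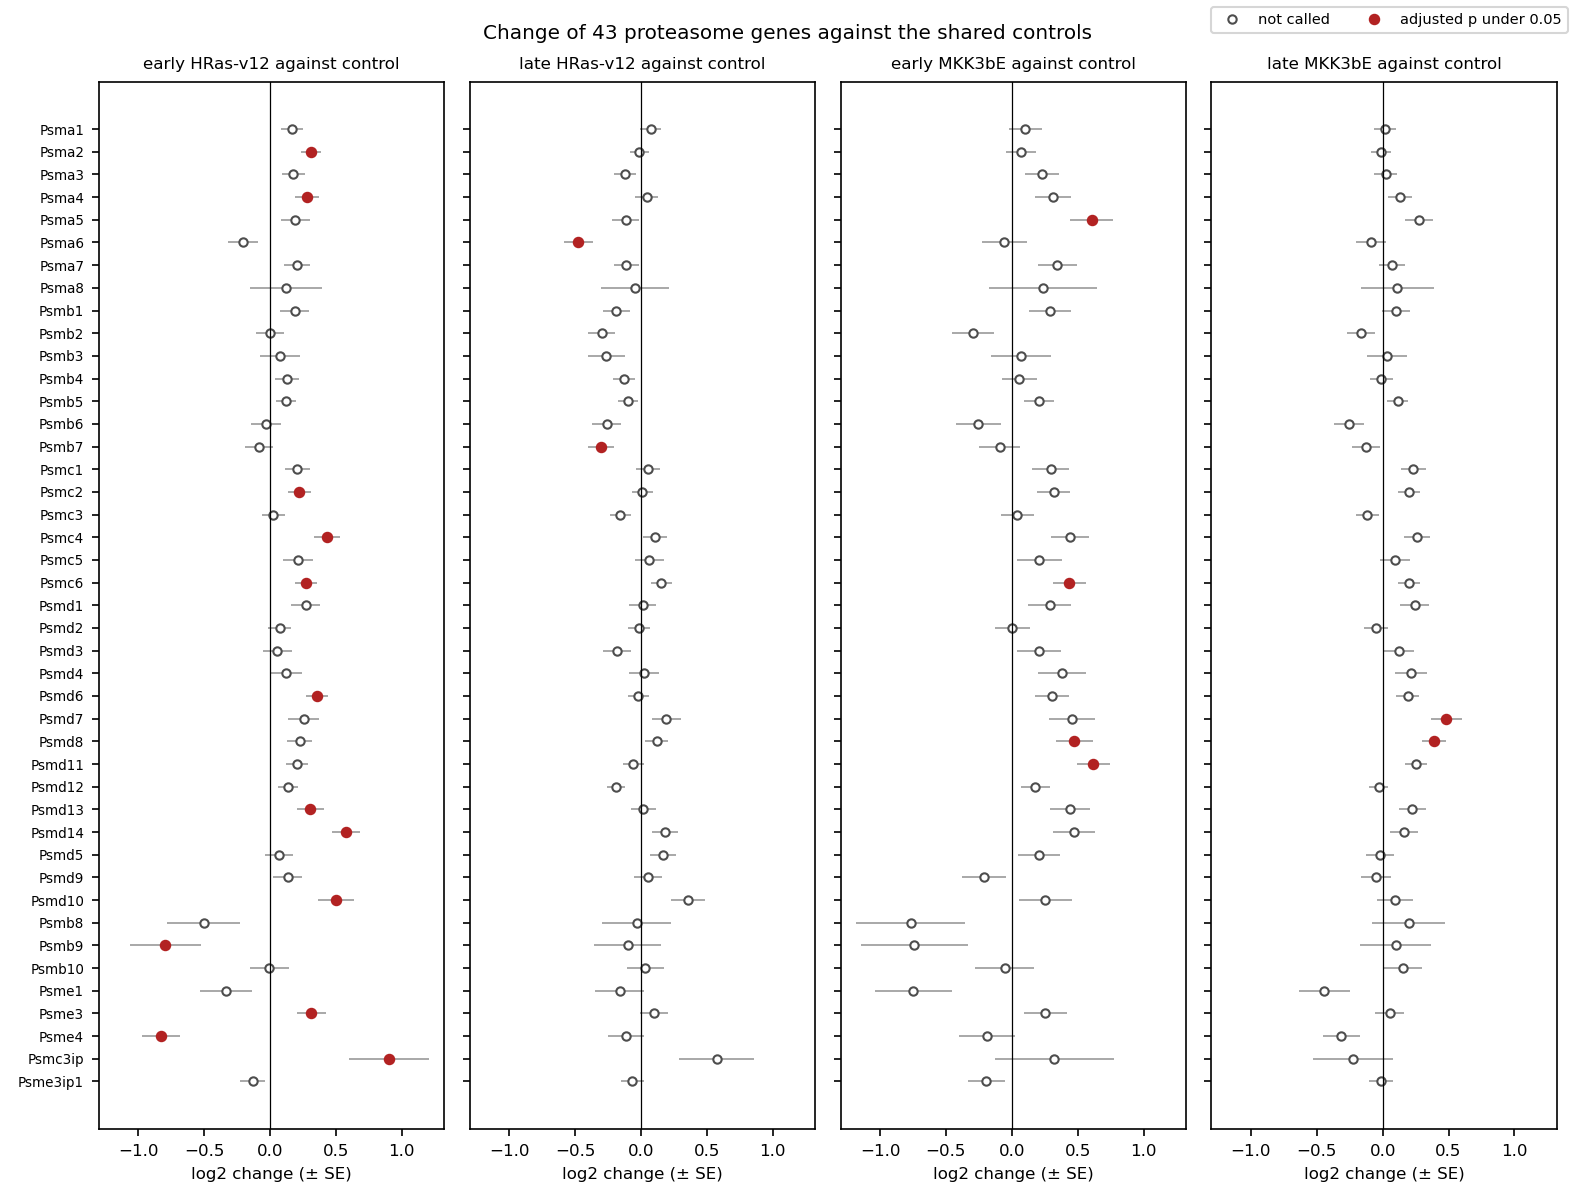
Log2 difference of each of the 43 tested proteasome genes from the shared controls, with its standard error as a bar, in early and late HRas-v12 and early and late MKK3bE hearts. Filled points are called. The 11 rises and 2 falls of early HRas-v12 hearts stand beside 2 falls in late HRas-v12 hearts and rises only in both MKK3bE panels.

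In late HRas-v12 hearts no proteasome gene rose, against 4.86% of all genes. Of the 43 genes 2 fell (4.65%), a share no higher than the 4.66% of all genes that fell. In either direction 9.52% of all genes were called. An unadjusted p under 0.05 was found for 6 of the 43. Both genes that fell were core subunits. Psma6 of the alpha ring had signals of 19047, 18996 and 19454 in late HRas-v12 females and 22851, 17636 and 23384 in males, against 23855 to 34495 in controls with a median of 27790.9. All late HRas-v12 arrays lay below all controls, and the difference was −0.47 ± 0.11 (SE; limma adjusted p = 0.0155), with an adjusted p of 0.0557 without HRas-v12 late male 3. Its further probe sets gave −0.14 and 0.09.

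Psmb7 read 56510, 48384 and 56360 in late HRas-v12 females and 59044, 36890 and 63024 in males, against 56244 to 68025 in controls. The groups overlapped, with a difference of −0.31 ± 0.10 (SE; limma adjusted p = 0.0498) that stayed called in 3 of the 12 single omissions. The 7 tested constitutive beta genes had differences below 0 throughout and a median of −0.26, the lowest of the subunit groups, with Psmb6 at −0.26 (limma adjusted p = 0.113) and Psmb5 at −0.10. The alpha ring had a median of −0.08, the cap ATPases of 0.06 and the cap non-ATPases of 0.01, with all genes at 0.02. Psmb8 (−0.03), Psmb9 (−0.10), Psmb10 (0.03) and Psme1 (−0.16) were not called. Without the arrays in doubt no proteasome gene was called late, with Psma6 at −0.40 (limma adjusted p = 0.1) and Psmb7 at −0.16 (0.363). With the mean of probe sets Psma6 (−0.17) and Psmb7 were not called and Psmd4, a ubiquitin receptor of the cap, was called higher (0.50, limma adjusted p = 0.0262). Among the pathway lists the chaperone Pdia3 alone rose (0.54), with its call lost without the arrays in doubt (adjusted p = 0.0543) and in 5 of the 23 alternatives in all. Markers called late in HRas-v12 hearts were 2 higher and 1 lower of macrophages, 2 lower of endothelium, 4 higher of fibroblasts and 7 lower of cardiac muscle. These were 17.6%, 16.7%, 33.3% and 58.3% of the tested markers in that order, against 9.52% of all genes tested.

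The late and early HRas-v12 hearts were also set against each other, which uses no control but rests on the same early arrays. All 31 standard subunits of core and cap tested were lower late than early, 9 of them called, with a median difference of −0.25. Over the 43 genes 9 were lower, against 4.67% of all genes tested, and Psme4 alone was higher, against 6.91%. Quantile normalization called 1 higher and 3 lower, median centring 18 in all, the fit of these groups alone 0, and the fit without HRas-v12 early female 1 called 1. Psmd14 was 17057, 20605 and 19206 in late HRas-v12 females and 15090, 23024 and 14867 in late males, against the early values given above. Late males lay below all early males and late females within the early females, with a difference of −0.39 ± 0.11 (SE; limma adjusted p = 0.0179) that was −0.22 (adjusted p = 0.29) without HRas-v12 early female 1.

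Psmd6 was lower late, with a difference of −0.38 ± 0.09 (SE; limma adjusted p = 0.0062), at 18429 to 23817 in late arrays against 24103 to 31405 in early arrays, with no overlap. Psmd12, a lid subunit, differed by −0.32 ± 0.07 (SE; limma adjusted p = 0.00595). Its signals were 19335, 17201 and 18117 in late females and 17529, 16214 and 19877 in late males, against 21229 and 21435 in early females and 21916 to 26187 in early males. The times did not overlap, and the call held in every single omission, but without the arrays in doubt the difference was −0.24 (adjusted p = 0.0519). Psmb1, a structural beta subunit, differed by −0.37 ± 0.11 (SE; limma adjusted p = 0.0252), though its further probe sets gave 0.26 and −0.03, and its adjusted p was 0.0777 without the arrays in doubt. The remaining called subunits were Psma2 (−0.32), Psmc4 (−0.32), Psma7 (−0.31), Psma3 (−0.29) and Psmd11 (−0.26), which fall outside the naming rule.

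Psme4 was higher late, at 32696, 30194 and 31441 in late females and 45033, 40951 and 44008 in late males, against 18136 and 42531 in early females and 17631 to 18678 in early males. Apart from early female 3 the times did not overlap, and the difference was 0.72 ± 0.14 (SE; limma adjusted p = 0.00218). Psme4, Psmd6 and Psma2 lost their calls without HRas-v12 early female 1, Psme4 then at 0.41 (adjusted p = 0.0618), and Psme4 was at 1.03 without the arrays in doubt. The immunoproteasome genes were higher late in 4 of 4, with a median of 0.32 and none called, Psmb9 at 0.69 (limma adjusted p = 0.0934). Nfe2l1 was also higher late (0.55), as was Irf1 (0.46), while Uba6 was lower (−0.48), though at −0.20 and not called with the mean of probe sets. Irf1 and Uba6 lost their calls without HRas-v12 early female 1. Of the cell markers, 2 of macrophages (11.8%) were lower late, and 3 of endothelium (25%) and 1 of fibroblasts (8.33%) higher, against 11.6% of all genes called.

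**Figure D3:**
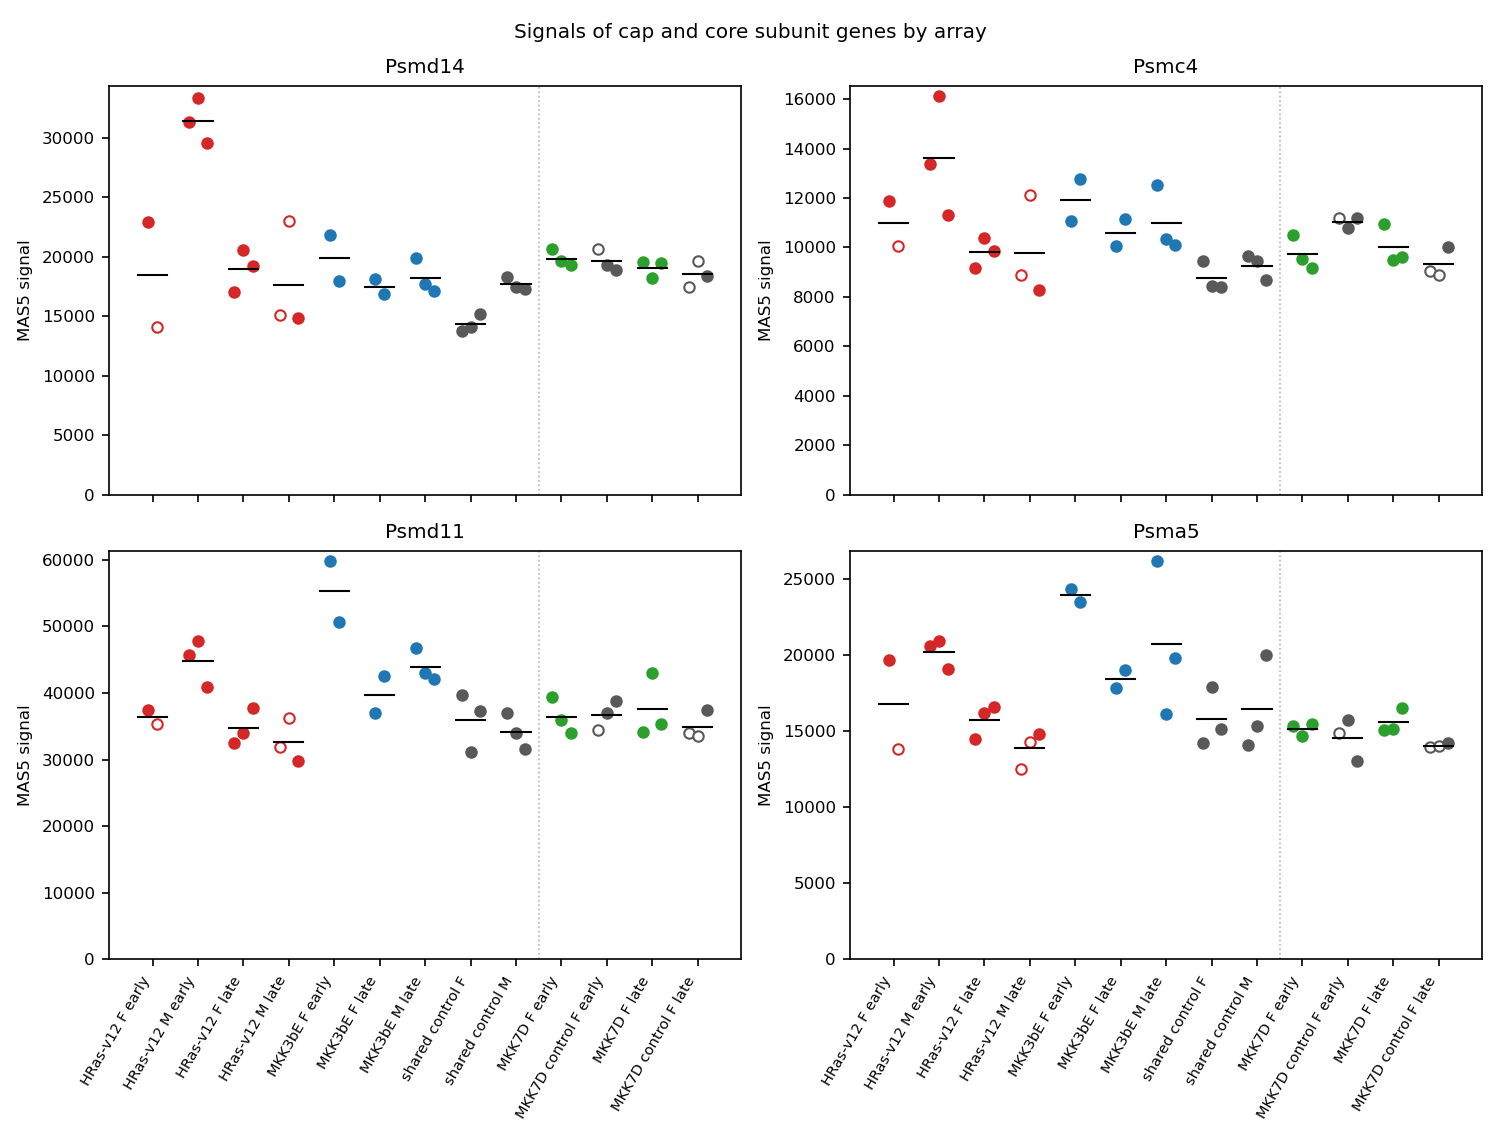
Signals of Psmd14, Psmc4, Psmd11 and Psma5 on each array by group, with black bars at group means, open circles for the 6 arrays that stood apart from their labels, and a dotted line before the MKK7D set. Early HRas-v12 males are the highest for Psmd14 (29560 to 33390) and early MKK3bE arrays for Psmd11 (50621 and 59849).

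In early MKK3bE hearts, of which there were 2 female arrays, 4 genes rose, against 3.48% of all genes tested, and none fell, against 2.78%. All 4 were standard subunits, 3 of the cap and 1 of the alpha ring. With only the compared groups in the fit the split differed: Psma5 and Psmd11 rose, and Psmb8, Psmb9 and Psme1 fell. Without the 6 arrays in doubt, which lie in other groups and enter only the shared estimate of spread, 8 rose and Psme1 fell. Psmd11, a scaffold subunit of the lid, had signals of 59849 and 50621 in early MKK3bE females, against 39744, 31077 and 37227 in control females. Both lay above every other array of the study, and the rise was 0.62 ± 0.13 (SE), 1.54-fold (limma adjusted p = 0.00497). Leaving out MKK3bE early female 1 took the adjusted p to 0.106. Further probe sets of Psmd11 gave 0.77, 0.34, 0.33 and 0.00.

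Psma5 of the alpha ring read 24342 and 23525 in early MKK3bE females, against 14261, 17929 and 15165 in control females, without overlap, and rose by 0.61 ± 0.16 (SE; limma adjusted p = 0.0234), with 0.71 in its further probe set. Psmd8, a lid subunit, read 17399 and 19081 in early MKK3bE females, against 14012, 14065 and 11394 in control females, also without overlap. It rose by 0.48 ± 0.14 (SE; limma adjusted p = 0.0365). Psmc6 had 27437 and 29966 in early MKK3bE females, against 21184, 25014 and 17948 in control females, with no overlap, and rose by 0.44 ± 0.12 (SE; limma adjusted p = 0.0331), but was at 0.20 (adjusted p = 0.513) with the mean of its probe sets. Psma5, Psmd8 and Psmc6 each lost their call when either MKK3bE array or control female 1 or 4 was left out.

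All 17 cap subunits had a difference above 0 in early MKK3bE hearts, with a median of 0.32, and 27 of the 31 standard subunits did, with a median of 0.29, against −0.02 for all genes. The immunoproteasome lay on the other side, below 0 in 4 of 4 with a median of −0.74 and none called. Psmb9 had 1962 and 1868 in early MKK3bE females, against 3080, 3865 and 2795 in control females, and Psmb8 had 2682 and 2649, against 4147, 4467 and 5116. Neither overlapped its controls, with differences of −0.74 for Psmb9 (limma adjusted p = 0.272) and −0.77 for Psmb8 (0.264) when the spread was estimated over all 13 groups. With only the compared groups in the fit both were called lower, at adjusted p of 0.0476 for Psmb9 and 0.0244 for Psmb8. Psme1 read 15097 and 20573 in early MKK3bE females, against 29590, 31296 and 27984 in control females, a difference of −0.75 (limma adjusted p = 0.121) that was called with only the compared groups in the fit (adjusted p = 0.0222) and without the 6 arrays in doubt (0.022). Psmb10 was at −0.05, Psmb5 at 0.20, Psmb6 at −0.26 and Psmb7 at −0.09, none called.

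H2-D1, a class I heavy chain, was the one pathway gene called in early MKK3bE hearts. It read 39958 and 15742 in early MKK3bE females, against 61454, 73722 and 44541 in control females, and fell by 1.22 on the log2 scale (limma adjusted p = 0.0436). Without MKK3bE early female 2 the difference was −0.55 (adjusted p = 0.538), and the call held in 8 of the 16 alternatives. Probes for one class I heavy chain can also bind transcripts of closely related ones. Among markers 1 endothelial gene was lower and 5 fibroblast genes were higher, with none called of macrophages, T, B and NK cells or cardiac muscle. The share called was 8.33% of endothelial and 41.7% of fibroblast markers, against 6.26% of all genes tested. The summed macrophage markers were 80607 and 147969 in early MKK3bE females.

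In late MKK3bE hearts 2 lid subunits of the cap rose. They were 2 of the 43 genes (4.65%), a share no higher than the 5.06% of all genes that rose, and none of the 43 fell, against 5.39%. Psmd7, a lid subunit that pairs with Psmd14, read 11244 and 14554 in late MKK3bE females and 15366, 11918 and 12056 in males, against 10648, 10702 and 8646 in control females and 9236, 9778 and 6928 in control males. No late MKK3bE array overlapped the controls, and the rise was 0.48 ± 0.12 (SE; limma adjusted p = 0.00953). Psmd8 read 16250 and 17175 in late MKK3bE females and 17432, 17905 and 17086 in males, against 11157 to 14731 in controls, again without overlap, and rose by 0.39 ± 0.09 (SE; limma adjusted p = 0.00821). Both lost their calls without MKK3bE late female 3, at adjusted p of 0.0903 for Psmd7 and 0.0503 for Psmd8, and omitting the 6 arrays in doubt gave 6 calls. These were rises of Psmd7, Psmd8, Psmc4 and Psmd11 and falls of Psme1 (−0.44, adjusted p = 0.0364) and Psme4 (−0.31, adjusted p = 0.025).

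The cap ATPases had a median of 0.20 in late MKK3bE hearts and the cap non-ATPases of 0.21, against 0.05 in the alpha ring, −0.01 in the beta ring and −0.01 over all genes. MKK3bE late male 3 had the highest immunoproteasome signals of the 36 arrays, with Psmb8 at 12020 and Psmb9 at 6867, against 1941 to 2817 for Psmb9 in the other late MKK3bE arrays. The same array had Tap1 at 6577, B2m at 143059 and Nlrc5 at 3390, against 1154 to 2276, 50864 to 87568 and 764 to 1681 in the shared controls. Psmb8 (0.20), Psmb9 (0.10), Psmb10 (0.15), Psme1 (−0.44), Psmb5 (0.11), Psmb6 (−0.25) and Psmb7 (−0.13) were not called with all arrays. Of the pathway genes Psmg1, an assembly chaperone, fell (−0.43), Mafg (0.39) and Mafk (0.63), small Maf partners of Nfe2l1, rose, and the interferon-induced Ifit1 rose (1.06). Of the 22 alternatives, 13 kept the call of Psmg1, 11 that of Mafg, 14 that of Mafk and 9 that of Ifit1. Of markers, 6 fibroblast genes (50%) and 1 cardiac muscle gene (8.33%) were higher, against 10.4% of all genes called in either direction. Late against early MKK3bE was tested on females alone, with 2 arrays at each time. It called none of the 43 genes, against 0.00792% of all genes, and 2 of the 43 had an unadjusted p under 0.05. The medians there were −0.15 over the standard subunits and 0.34 over the immunoproteasome.

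**Figure D4:**
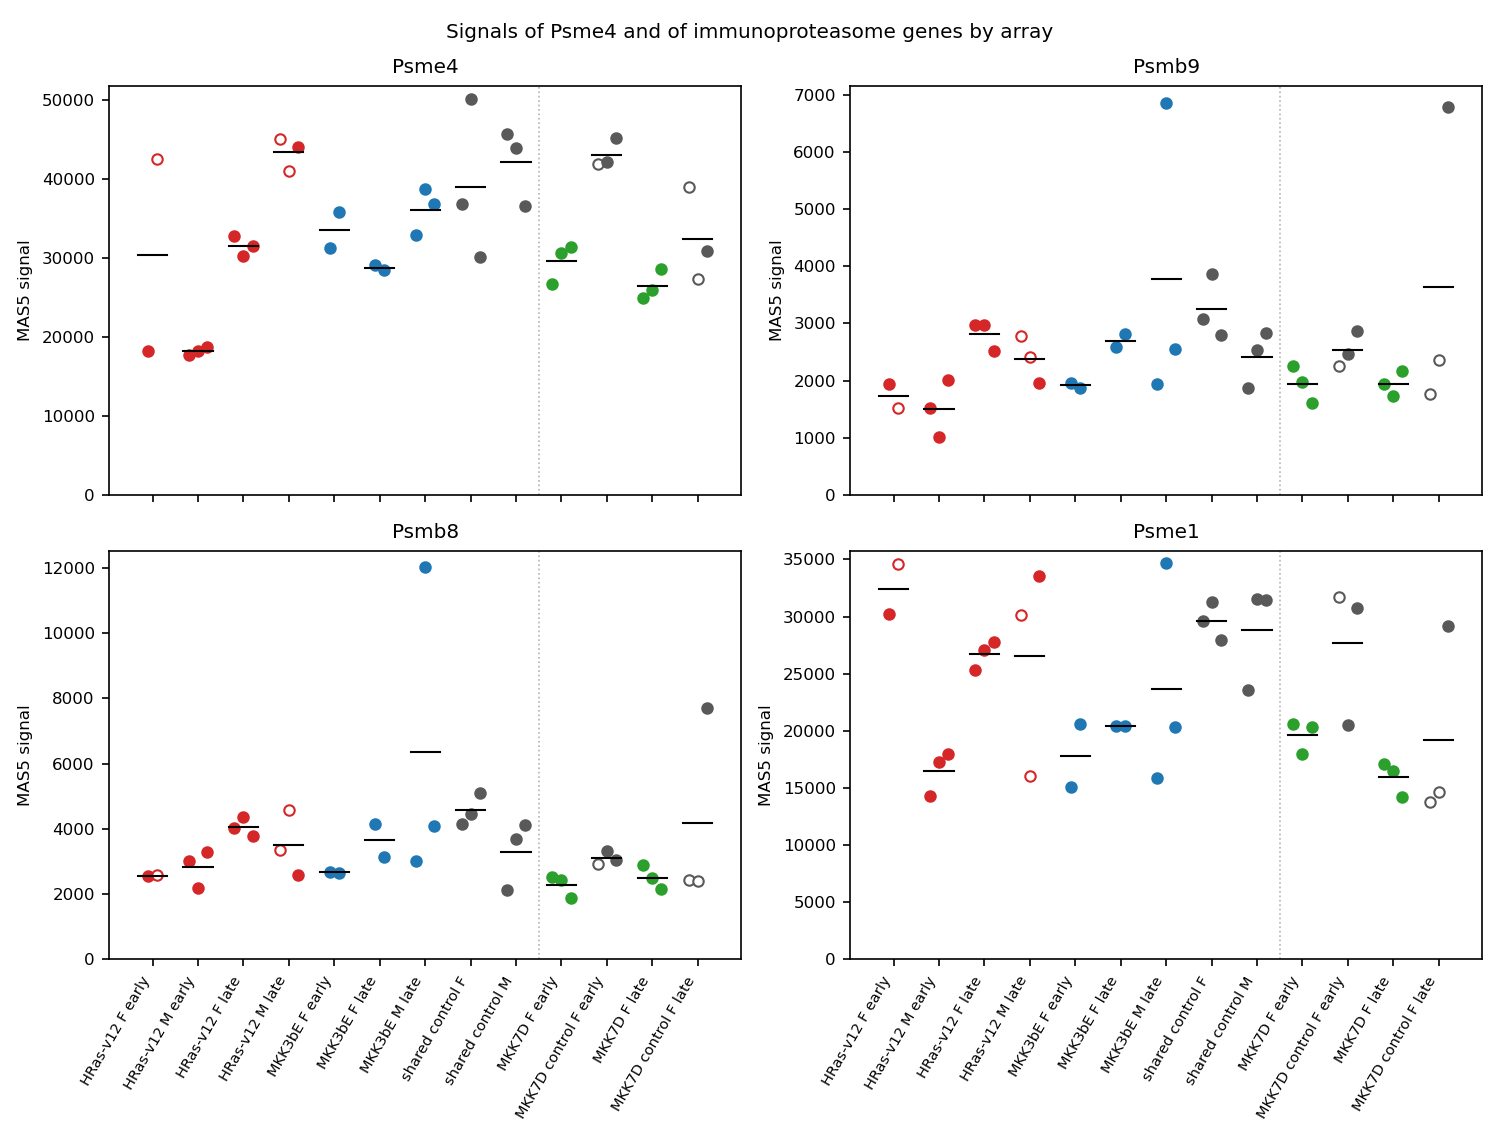
Signals of Psme4, Psmb9, Psmb8 and Psme1 on each array by group, with black bars at group means and open circles for the 6 arrays that stood apart from their labels. For Psme4, 4 of the 5 early HRas-v12 arrays lie at 17631 to 18678, below all others, and for Psmb8 and Psmb9, MKK3bE late male 3 and late MKK7D control 10 stand highest.

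The HRas-v12 and MKK3bE lines were compared directly at each time. Early, in females, no proteasome gene was higher in HRas-v12, against 0.451% of all genes, and 1 was lower, against 1.35%. Psmd11 read 37393 and 35415 in early HRas-v12 females, against 59849 and 50621 in early MKK3bE females, without overlap. The difference was −0.60 ± 0.14 (SE; limma adjusted p = 0.0199), lost without HRas-v12 early female 3 (0.0921) or MKK3bE early female 1 (0.278). Without the arrays in doubt, which leaves HRas-v12 female 1 alone, Psmd11 was not called (adjusted p = 0.0589), Psmd10 was higher in HRas-v12 (0.66, adjusted p = 0.0427) and Psme4 lower (−0.88, adjusted p = 0.0096). Psme1 read 30220 and 34587 in HRas-v12 females, against 15097 and 20573 in MKK3bE females, a difference of 0.87 that was not called (limma adjusted p = 0.189).

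Late, over both sexes, none was higher in HRas-v12, against 1.92% of all genes, and 2 were lower, against 2.04%. Psma5 read 12493 to 16566 in late HRas-v12 arrays with a median of 14678.3, against 17839 and 19044 in late MKK3bE females and 26185, 16153 and 19813 in males. MKK3bE male 3 alone overlapped the HRas-v12 arrays, and the difference was −0.39 ± 0.11 (SE; limma adjusted p = 0.037). Psmd11 read 29800 to 37730 in late HRas-v12 arrays, against 36950 and 42485 in late MKK3bE females and 42144 to 46777 in males. Only the ranges of the females touched, and the difference was −0.31 ± 0.08 (SE; limma adjusted p = 0.033). These calls stayed in 3 and 5 of the 11 single omissions for Psma5 and Psmd11, and without the arrays in doubt Psma5 was not called (adjusted p = 0.118). Of the 31 standard subunits 27 were lower in late HRas-v12 hearts, with a median of −0.18. The cap component Sem1 (−0.34) and the proteasome-bound thioredoxin Txnl1 (−0.36) were also lower in late HRas-v12 hearts, Sem1 called in 9 and Txnl1 in 11 of the 22 alternatives and neither without the arrays in doubt.

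**Figure D5:**
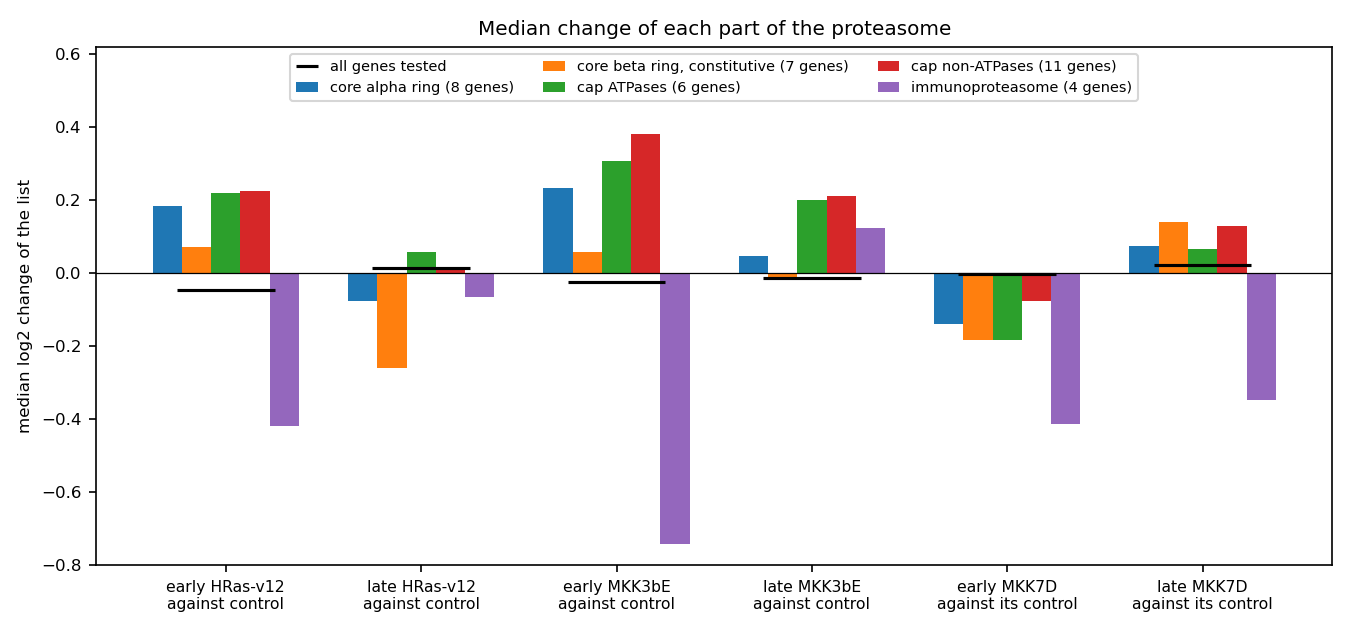
Median log2 difference of each part of the proteasome (coloured bars) and of all genes tested (black lines) in the 6 contrasts of transgenic hearts against control. The cap bars reach 0.31 and 0.38 in early MKK3bE hearts, where the immunoproteasome bar lies at −0.74.

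In MKK7D hearts no proteasome gene was called at either time. Early, 0.135% of all genes were called, and 4 of the 43 had an unadjusted p under 0.05. Late, 0.0% were called, and 1 of the 43 had such a p. Psme4 had signals of 26618, 30604 and 31316 in early MKK7D hearts, against 41791, 42057 and 45085 in their controls. These did not overlap, and the difference was −0.54 ± 0.19 (SE; limma adjusted p = 0.254), with an adjusted p of 0.0284 when only these groups entered the fit. Late, Psme4 read 24894, 25922 and 28543 in MKK7D hearts, against 38926, 27299 and 30800 in controls, and 1 MKK7D array overlapped the controls.

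The standard subunits leaned to opposite sides in MKK7D hearts, with 27 of 31 below 0 early (median −0.16) and 24 of 31 above 0 late (median 0.10). The late control mean includes arrays 8 and 9, whose Esr1 signal is at the level of the transgenic arrays. Those arrays had 6 and 9 of 31 subunits above that mean. Late control 10 had 23, against 23, 22 and 21 in the late MKK7D arrays, which by this count did not stand higher than control 10. All 4 immunoproteasome genes lay below 0 early, at −0.47 for Psme1, −0.44 for Psmb8, −0.38 for Psmb9 and −0.17 for Psmb10. Late, Psmb9 read 1940, 1737 and 2164 in MKK7D hearts, against 1756, 2358 and 6792 in controls, and Psmb8 2885, 2490 and 2156, against 2441, 2405 and 7716. The high value in each belonged to control 10, the late control array with an Esr1 signal at control level, which also had Tap1 at 2829, B2m at 99726 and Nlrc5 at 2955. With that array as the sole late control, assumed to vary like the other groups, Psmb8 was at −1.62 (limma adjusted p = 0.0482) and Psmb9 at −1.79 (limma adjusted p = 0.0203). The early-to-late change of MKK7D called none of the 43, with 2 at an unadjusted p under 0.05, against 0.0158% of all genes. No pathway gene and no cell marker was called in MKK7D hearts at either time.

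Males and females were compared for the early HRas-v12 change. None of the 43 genes was called, against 1.1% of all genes, and 5 had an unadjusted p under 0.05. Psme1 differed most among the immunoproteasome genes, with a male minus female difference of −0.92 ± 0.39 (SE; limma adjusted p = 0.199). Psme4 differed by −0.75 ± 0.29 (SE; limma adjusted p = 0.16) and Psmd14 by 0.50 ± 0.21 (SE; limma adjusted p = 0.203), the females including array 3.

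The MKK7D controls were set against the shared control females to see how far controls differ among themselves. In the early controls 1 gene was higher, against 0.507% of all genes, and none was lower, against 0.958%. It was the cap ATPase Psmc2, at 30137, 29013 and 29703 in early MKK7D controls against 21135, 22152 and 20109 in shared control females, with a difference of 0.49 ± 0.11 (SE; limma adjusted p = 0.0243). Its other probe sets gave −0.17 and −0.34. Without the arrays in doubt its adjusted p was 0.0528, and Psmd14 was called higher in the early controls (0.42, adjusted p = 0.0421). In the late controls 1 gene was higher, against 4.85%, and 1 was lower, against 5.89%: Psmc6 was at 0.39 ± 0.11 (SE; limma adjusted p = 0.0248) and the chaperone Psmd9 at −0.58 ± 0.15 (SE; limma adjusted p = 0.0146). Psmd9 read 1577, 1695 and 2026 in late MKK7D controls, against 2628, 2766 and 2516 in shared control females, and its further probe set gave 0.03. Both late differences include arrays 8 and 9, whose Esr1 signal, against their label, is at the level of the transgenic arrays. Each call was lost without array 8 and without array 9, and that of Psmc6 also without shared control female 1 or 4. With the arrays in doubt left out, which leaves array 10 as the sole late control, Psmd9 was at −0.37 and Psmc6 at 0.22. Both kept their direction, and the part of arrays 8 and 9 in these differences cannot be told from 1 remaining array. In the late controls Ubqln1 (0.33), Akirin2 (0.43), Usp14 (0.50), Ngly1 (0.55) and Uba6 (0.54) were higher and Irf1 (−0.55) lower, as were 6 cardiac muscle markers, and 2 fibroblast markers were higher. With the arrays in doubt left out, Irf1 was at −0.13 and Ngly1 at 0.23, and none of these 6 pathway genes was called. The markers called in the late controls were 50% of the cardiac muscle and 16.7% of the fibroblast list, against 10.7% of all genes tested. In the early controls 1 cardiac muscle marker was lower (8.33%, against 1.47% of all genes called).

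Counting the 31 standard subunits above the mean of the matched controls shows the same data per array. Early HRas-v12 females had 24 and 25 of 31 above it and males 26, 29 and 21, and early MKK3bE females had 28 and 24. Late HRas-v12 females had 10, 17 and 17 and males 5, 13 and 7, whereas late MKK3bE females had 16 and 26 and males 27, 19 and 19. Early MKK7D arrays had 16, 3 and 3 and late MKK7D arrays 23, 22 and 21. Single shared controls had 12 to 22, and every early HRas-v12 array but male 3 and both early MKK3bE arrays had more. Each control array is part of the mean it is set against, whereas a transgenic array is not. Transgenic arrays of one sex also share one control mean, so the range of the controls is no measure of how far transgenic arrays vary. MKK7D controls had 18, 11 and 21 early and 6, 9 and 23 late, a wider range than that of the shared controls.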

How the data were processed

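RNA of the cardiac left ventricle was hybridised to 36 one-colour Affymetrix mouse arrays with 45101 probe sets. Per the submitters' processing notes the deposited intensities are MAS5 signals, on a linear scale. They had been scaled so that each array had the same trimmed mean (2500.01 on each array, as the values show), and no detection calls were used here. Array medians were 593.5 to 798.6, arrays correlated at 0.834 to 0.974, and the number of arrays limits the precision. Probe sets were named from the platform annotation: 34945 had 1 symbol, 932 several, 9160 none and 64 were controls, and symbols were looked up by gene ID in RefSeq for 34741. Signals plus 32 were log2 transformed, the brightest 60% of probe sets by overall mean (signal of about 414.3 or more) were kept, and the brightest probe set stood for each gene. That left 12626 genes.

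One model with the 13 groups was fitted with limma 3.58.1 in R 4.3.3 (lmFit, and eBayes with an intensity trend), giving 14 contrasts, each adjusted over all genes. The procedure was tested on simulated data. The HRas-v12 and MKK3bE contrasts share their controls.

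Genes named always were the immunoproteasome genes and Psmb5, Psmb6 and Psmb7, and in each contrast up to 4 called genes with the largest rise and 4 with the largest fall. From the lists of assembly and regulation, transcription, ubiquitin and class I or interferon genes, up to 4 called genes were named. Other names are given after their values were seen. Cell type lists covered macrophages, T, B and NK cells, endothelium, fibroblasts and cardiac muscle. The set of genes and all lists were chosen with earlier results of these data known. Alternatives were other pseudocounts (1 and 128), filters, normalizations and summaries of probe sets, a fit without the trend, a block on the replicate number, fits of the compared groups alone, and leaving out arrays.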

Additional observations from a re-analysis of the deposited data

Results flagged for a closer look

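The late and early HRas-v12 hearts differed from each other in a direct test of the difference, which is not a test of one time against control. The test called 10 of the 43 proteasome genes (23.3%), against 11.6% of all genes tested (limma, adjusted over all genes). The named ones were Psmd14 at a late minus early log2 difference of −0.3935, Psmd6 at −0.3758, Psmb1 at −0.3738, Psmd12 at −0.3234 and Psme4 at 0.7151. All 5 rest on the same early arrays as the early contrast against control, and among them only Psmd12 stayed called whichever single array was left out. Without the arrays in doubt the calls of Psmd12 and Psmb1 were lost.

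The HRas-v12 and MKK3bE lines differed in few proteasome genes in direct tests at each time, with shares close to those of all genes tested. The early test called 1 gene (2.33%, against 1.81% of all genes tested), Psmd11, at an HRas-v12 minus MKK3bE difference of −0.5965. The late test called 2 genes (4.65%, against 3.95%), Psma5 at −0.3897 and Psmd11 at −0.3122. Each of these calls was lost in at least 1 single omission of an array, and without the arrays in doubt only that of Psmd11 in the late test held.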

How the results depend on the processing

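Counts below are of the 43 tested genes called per contrast, and the cause of a shift was not tested unless arrays or groups were removed, which also lowers the number of arrays. Leaving out single arrays gave 5 to 16 calls in early HRas-v12 against control (13 with all arrays, and 5 without early female 1), 0 to 6 in late HRas-v12 (2), 0 to 4 in early MKK3bE (4), 0 to 4 in late MKK3bE (2), 1 to 15 in late against early HRas-v12 (10, and 1 without HRas-v12 early female 1), 0 to 2 in early HRas-v12 against early MKK3bE (1), 0 to 3 in late HRas-v12 against late MKK3bE (2), 0 to 3 in the male against female change (0, and 3 without HRas-v12 early female 1), and 0 to 2 and 0 to 6 in the early and late MKK7D controls against shared controls (1 and 2). It gave 0 throughout in both MKK7D contrasts against control and in the late against early contrasts of MKK3bE and MKK7D.

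Fitting only the groups compared gave 8 calls in early HRas-v12, 5 in early MKK3bE (2 higher, 3 lower, against 4 higher) and 1 in early MKK7D (Psme4), and 0 in late HRas-v12, in late against early HRas-v12, in both contrasts between the lines and in both contrasts between controls. Late HRas-v12 had 1 call at pseudocount 1, with no filter, with quantile normalization and without the trend, 1 with the mean of probe sets, where the called gene was another and was higher (Psmd4), and 4 with median centring. Median centring gave 2 in early MKK3bE and 18 in late against early HRas-v12, and quantile normalization gave 4 (1 higher, 3 lower) in the last and 0 in late HRas-v12 against late MKK3bE, which had 1 with no filter. The mean of probe sets gave 4 in late MKK3bE and 0 in early HRas-v12 against early MKK3bE and in both contrasts between controls, where Psmc2 in the early controls changed sign, to −0.0084.

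With the replicate number as a block there were 10 calls in early HRas-v12, 0 in late HRas-v12, 2 in early MKK3bE, 2 in late MKK3bE, 2 in late against early HRas-v12, 1 in late HRas-v12 against late MKK3bE and 0 in both contrasts between controls. Over 23 pairs of same-numbered arrays the correlation of deviations was −0.343 to 0.125, above 0.1 in 4 pairs. With groups of 2 or 3 arrays, and no differently numbered pairs beside them, these values cannot tell whether the numbers pair the arrays. Without the 6 arrays in doubt, a setting chosen after the data had been seen, the calls were 0 in late HRas-v12, 9 in early MKK3bE, 6 in late MKK3bE, 2 in late MKK7D, 2 in early HRas-v12 against early MKK3bE, 1 in late HRas-v12 against late MKK3bE and 0 in the late MKK7D controls. Of 1086 values of called named genes over the alternatives, 789 stayed called in the same direction, 296 lost the call and 1 changed sign. Of 1845 values of named genes not called, 15 became called, 1732 stayed uncalled with the same sign and 98 stayed uncalled with the other sign. Dim genes such as Psma8 and Psmc3ip lie near the filter, where signal over background limits any difference.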
